A study of Mus musculus with 2 samples.

Results

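The 10 genes described here encode the enzymes and the transporter that buffer ATP and handle AMP in muscle: the creatine kinases Ckm, Ckb, Ckmt1 and Ckmt2, the creatine transporter Slc6a8, the creatine synthesis enzyme Gamt, the adenylate kinase Ak1, the AMP deaminases Ampd1 and Ampd3, and the adenylosuccinate synthase Adssl1. They were chosen by name, and their probes were found through the RefSeq accession of each probe, which gave 14 probes for 10 of the 23458 genes matched on the array. Expression was measured with 1 microarray per group, each hybridised with Cy3-labelled cRNA made from 0.1 µg of total RNA of pooled single muscle fibres. The slow pool held 1659 fibres with GFP fluorescence from the soleus, a postural calf muscle, and the fast pool held 4447 fibres without it from the extensor digitorum longus (EDL), which extends the toes and is mostly fast. Both muscles were taken from 8 mice, all male, 6 to 8 weeks old and GFP-Myh7 heterozygous (G/+), so that both pools carry the GFP allele and GFP fluorescence was used to tell slow fibres. The labels of the slow pool differ on its muscle, with EDL given as tissue and soleus given elsewhere, and soleus was taken as its origin.

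Creatine kinase moves a phosphate group between ATP and phosphocreatine, so that ATP spent by myosin and the calcium pumps is replaced at once and the store is refilled near the mitochondria. Muscle takes up its creatine from the blood, since creatine is made mostly in the kidney and liver. Adenylate kinase recovers ATP from a pair of ADP molecules and leaves AMP, which AMP deaminase turns into IMP and ammonia; adenylosuccinate synthase starts the way back from IMP to AMP, which closes the purine nucleotide cycle. Fast glycolytic fibres are known for high creatine kinase and AMP deaminase activity, and slow oxidative fibres for mitochondrial creatine kinase.

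Each group was 1 pool on 1 array, so no difference below has a replicate check or a test, and muscle of origin and fibre type differ together between the pools. Values are spot intensities that were background-subtracted within each array. For a difference, the log2 intensity minus that array's 75th percentile was taken in slow and in fast fibres, and the difference is slow minus fast, so a positive value is higher in slow fibres. A gene was called where the difference reached 2-fold. Technical spread is known only within the arrays: repeated spots of 1 probe had a median SD of 0.05 for a log2 difference, and the scanner software's own error was 0.20 to 0.22 for the 13 probes of these genes that were well above background. Of all genes detected on either array, 14.2% passed 2-fold towards lower values in slow fibres, 10.6% towards higher values, and 24.9% in either direction.

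All 10 genes were measured in both pools, and 4 of them were at least 2-fold lower in slow fibres (Ampd1, Gamt, Ckm and Ckb), none was at least 2-fold higher there and 6 lay within 2-fold. The 4 make up 40.0% of the genes, beside 14.2% of all genes (10.6% for higher values, and 24.9% in either direction), with a median difference of -0.71 over the 10 genes and 0.05 over all genes measured on both arrays. The mitochondrial creatine kinases Ckmt2 and Ckmt1 and the transporter Slc6a8 were the 3 genes with a positive difference. The number of arrays limits the precision of all of these values.

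**Figure D1:**
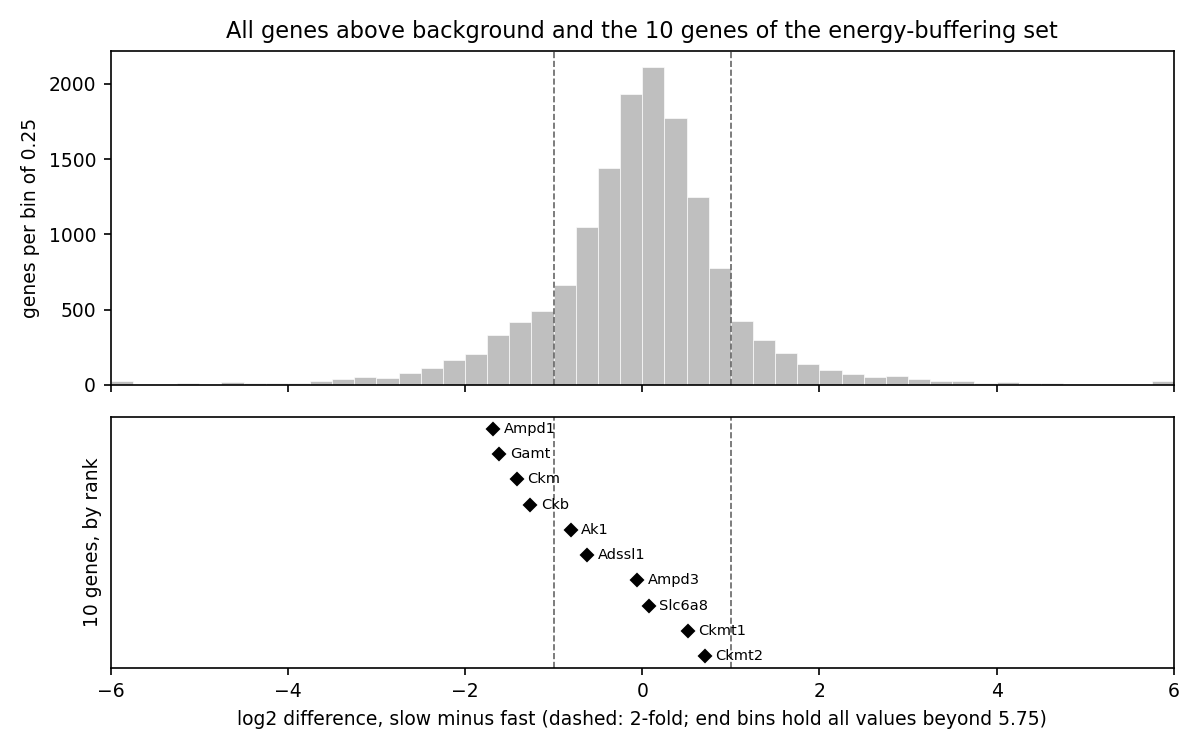
Upper panel: number of genes above background per bin of the log2 difference, slow minus fast. Lower panel: the 10 genes in order of their difference, from Ampd1 at -1.69 to Ckmt2 at 0.70; dashed lines mark 2-fold, and 4 genes lie beyond the lower line.

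The labels were checked with marker lists. Past 2-fold, all 6 slow fibre markers were higher and all 9 fast fibre markers lower in slow fibres, with Myh7, the slow myosin heavy chain, at an intensity of 316863 in slow and 1094 in fast fibres, and Myh4, Myh1 and Myh2, the fast chains, at log2 differences of -11.54, -6.84 and -1.84. Markers of other cell types were mostly lower in slow fibres: 7 of 8 endothelial markers (among them Cdh5, at a log2 difference of -1.70, but not Pecam1, at -0.86), 6 of 6 fibroblast markers (Pdgfra at -1.40 and Col1a1 at -2.18), 4 of 6 erythrocyte markers (Hba-a1 at -1.43 and Hba-a2 at -1.46) and 2 of 7 immune markers were at least 2-fold lower. The summed level, as a multiple of the 75th percentile of the array, was 5.05 in slow and 22.3 in fast fibres for endothelial markers, 21.3 and 88.7 for fibroblast markers, 34.7 and 92.9 for erythrocyte markers and 4.65 and 16.4 for immune markers. Ptprc and Adgre1 (immune), Adipoq and Plin1 (adipocyte) and Myf5 (satellite cell) were not well above background in any pool. Schwann cell markers were split, with 4 of 7 lower and 2 higher by at least 2-fold (Sox10 at -1.09, summed level 19.4 in slow and 9.22 in fast fibres). The brightest in that sum was Pmp22, 1 of the 2 higher ones, at an intensity of 3423 in slow and 817 in fast fibres. For Mbp, the other higher one, 2 further probes went the other way, at -1.78 and -1.06, each well above background on 1 array only. Pmp22 and Mbp were named after their values were seen. Smooth muscle and pericyte markers had 3 of 8 lower and 1 higher (Acta2 at -0.13 and Myh11 at -0.64, summed level 705 and 778). Nearly all of that sum was Acta2, at an intensity of 136890 in slow and 139689 in fast fibres. Over the list, 7 of the 8 differences were below 0, with a median of -0.78. Of adipocyte markers 1 of 3 was lower (summed level 7.86 and 18.1), and none of 2 satellite cell (Pax7 at 0.60, summed level 0.11 and 0.07) or 3 neuronal markers (Tubb3 at -0.02 and Snap25 at 0.41, summed level 12.2 and 10.3) passed 2-fold. In such pools, fewer cells of a type and less RNA per cell cannot be told apart.

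The cytosolic creatine kinases were lower in slow fibres and the mitochondrial ones were not. Ckm, the muscle form that sits in the cytosol and at the M-band, had an intensity of 53616 ± 5362 in slow fibres and 133232 ± 13323 in fast fibres (here and below ± is the software's error of the spot). The log2 difference was -1.41, or 2.67-fold lower in slow fibres. Ckm stayed past 2-fold under 8 of 9 ways of scaling and missed it at -0.99 under scaling to the spike-in controls, RNAs added in known amounts, which adds 0.42 to every difference. Ckb, the form of brain and many other tissues, was dim in both pools, at 73.6 ± 7.63 in slow fibres and 165 ± 16.5 in fast fibres, a log2 difference of -1.26. Its other probe gave 38.7 ± 4.39 in slow fibres and 60.9 ± 6.34 in fast fibres, a difference of -0.76 that does not reach 2-fold. Ckb was within 2-fold under 3 of 9 scalings, with -0.84 as the value nearest to 0 for the brighter probe. Endothelial and fibroblast markers moved the same way, with median differences of -1.70 and -1.97; their part in the Ckb value was not tested.

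Ckmt2, the sarcomeric form between the mitochondrial membranes of heart and skeletal muscle, had an intensity of 140452 ± 14045 in slow fibres and 80398 ± 8040 in fast fibres. The log2 difference of 0.70, or 1.63-fold higher in slow fibres, is within 2-fold, but 3 of 9 scalings put it past 2-fold, up to 1.13 under spike-in scaling. Ckmt1, the ubiquitous mitochondrial form, read 889 ± 88.9 in slow fibres and 580 ± 58.0 in fast fibres, a log2 difference of 0.52. Its other probe stayed near background in both pools, not well above it on any array, at 4.37 in slow and 5.70 in fast fibres, and gives no level. Over the 9 scalings Ckmt2 lay between 0.59 and 1.13 and Ckmt1 between 0.41 and 0.94, so neither changed sign.

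Because Ckm and Ckmt2 were read on the same arrays, their ratio does not depend on a constant scaling factor. The Ckmt2 to Ckm intensity ratio was 4.34-fold higher in slow than in fast fibres, a log2 value of 2.12 with a software error of 0.29, and it ran from 2.12 to 2.40 over the 9 scalings. The Ckmt1 to Ckm ratio was 3.81-fold higher in slow fibres, and the Ckmt2 to Ckmt1 ratio 1.14-fold. These and the later ratios were chosen after the values were seen, and they show unequal differences of the genes, not which of them stayed level. The 9 scalings are drawn in the plot of differences by scaling.

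**Figure D2:**
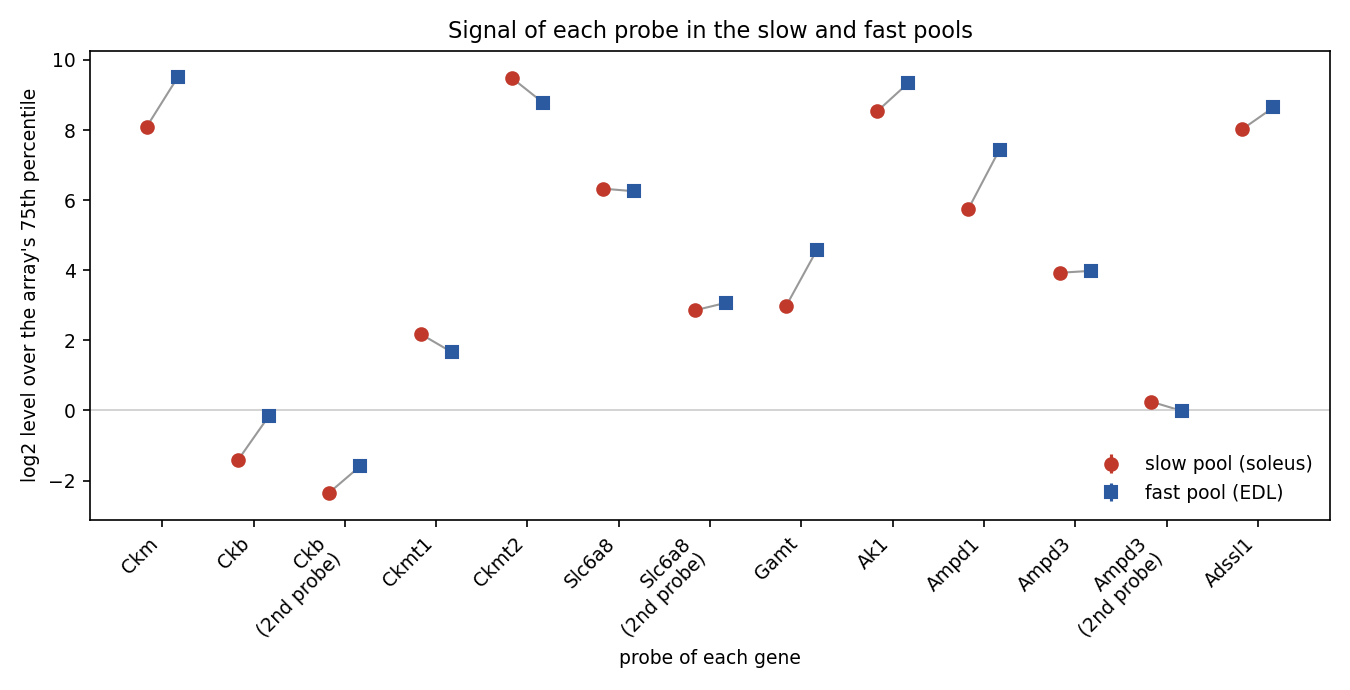
Log2 level of the 13 probes well above background over the 75th percentile of their array, in the slow pool (circles) and the fast pool (squares); bars show the software's error, 1 SD, which is smaller than the symbols. The lines join the pools: Ckmt2 goes down towards the fast pool (9.49 in slow, 8.78 in fast fibres) and Ckm goes up (8.10 in slow, 9.51 in fast fibres), and levels of different probes are not comparable.

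The start regions of 3 creatine kinase genes are shown because the genes differ in direction between the pools and have a single listed start. Each sequence is the 300 bases from 250 before to 50 after the RefSeq transcription start, 5′ to 3′ on the gene's own strand, build GRCm38.p6. Capitals mark E-boxes (CANNTG, the motif of MyoD family factors) and matches to the MEF2 motif, both read on both strands.
Ckm, chr7:19410844-19411143, + strand: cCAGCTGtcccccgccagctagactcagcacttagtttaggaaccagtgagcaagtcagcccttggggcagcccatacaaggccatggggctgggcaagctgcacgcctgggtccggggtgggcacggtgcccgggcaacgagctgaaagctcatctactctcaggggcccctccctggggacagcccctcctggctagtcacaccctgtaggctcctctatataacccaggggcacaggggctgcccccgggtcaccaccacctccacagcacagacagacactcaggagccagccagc
Ckb, chr12:111672289-111672588, - strand: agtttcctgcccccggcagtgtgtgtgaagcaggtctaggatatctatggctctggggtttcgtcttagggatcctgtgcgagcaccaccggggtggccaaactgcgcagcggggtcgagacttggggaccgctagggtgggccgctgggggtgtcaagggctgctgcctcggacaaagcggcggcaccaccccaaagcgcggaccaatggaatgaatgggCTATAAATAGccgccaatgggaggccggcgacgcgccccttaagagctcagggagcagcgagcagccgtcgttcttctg
Ckmt2, chr13:91876836-91877135, - strand: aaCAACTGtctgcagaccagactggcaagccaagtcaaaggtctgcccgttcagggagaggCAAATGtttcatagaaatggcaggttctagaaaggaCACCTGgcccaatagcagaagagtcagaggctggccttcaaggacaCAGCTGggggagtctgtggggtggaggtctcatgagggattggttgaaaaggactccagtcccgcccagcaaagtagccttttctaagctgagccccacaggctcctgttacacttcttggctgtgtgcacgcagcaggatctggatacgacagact
The Ckm window holds 1 E-box at its far end, at position -249 from the start, the Ckmt2 window holds 4, and the Ckb window holds none. The Ckb window holds 1 MEF2 match at position -29, and the letters TATAAA lie inside it. Of all 32851 start windows in the table, 72.3% hold an E-box, 3.19% a MEF2 match and 13.6% TATAAA on either strand. The 14 windows of the 8 genes with an entry include 11 with an E-box, 2 with a MEF2 match (Ckb and 1 of 4 starts of Ak1) and 3 with TATAAA. Slc6a8 and Ampd1 had no entry. These matches describe the letters and not binding.

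The creatine transporter lay near 0, while both genes of creatine synthesis were lower in slow fibres. Slc6a8, the sodium- and chloride-dependent creatine transporter, read 15740 ± 1574 in slow fibres and 13947 ± 1395 in fast fibres by its brighter probe, a log2 difference of 0.07. The other Slc6a8 probe read 1418 ± 142 in slow fibres and 1533 ± 153 in fast fibres, a difference of -0.21. Both probes stayed within 2-fold under all 9 scalings, with the sign changing among them. Gamt, guanidinoacetate methyltransferase, which adds the methyl group in the last step of creatine synthesis, read 1532 ± 153 in slow fibres and 4375 ± 437 in fast fibres, a log2 difference of -1.61 or 3.06-fold lower in slow fibres, and it was past 2-fold under all 9 scalings. The Slc6a8 to Gamt ratio was 3.22-fold higher in slow fibres.

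Gatm, the enzyme of the first step of creatine synthesis, was well above background only in fast fibres, with an intensity of 4.32 in slow fibres and 44.3 in fast fibres, and was at least 5.39-fold lower in slow fibres. A bound of this kind sets the bright value against the lowest signal well above background on the dim array, or the dim value where that is higher. The other Gatm probe was also well above background in fast fibres only. The Gatm log2 bound of -2.43 shrank to -0.67 under normexp, a model-based background correction that compresses dim probes. As for Ckb, fibroblast and endothelial markers were lower in slow fibres (6 of 6 and 7 of 8 by at least 2-fold), and their part in the Gamt and Gatm values was not tested.

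Ak1, the adenylate kinase of the muscle cytosol, read 72688 ± 7269 in slow fibres and 118507 ± 11851 in fast fibres. The log2 difference was -0.81, or 1.75-fold lower in slow fibres, below 0 and within 2-fold under all 9 scalings, from -0.92 to -0.38. The Ak1 to Ckm ratio was 1.52-fold higher in slow fibres. Of 8 other adenylate kinases, 4 were measured, all with a difference below 0 and a median of -0.75. That median was -0.33 under spike-in scaling and -0.49 with the median over the probes of each gene. Ak3, of the mitochondrial matrix, stood at -0.83 by its brightest probe and -0.88 by its other one, Ak6 at -0.68 and Ak4, another matrix form, at -0.30. The Ak4 difference was 0.12 under spike-in scaling. Ak5, Ak7 and Ak8 were not well above background, and Ak9 had no matched probe.

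The AMP deaminases differed by form. Ampd1, the form of skeletal muscle, whose loss in humans causes myoadenylate deaminase deficiency, read 10595 ± 1060 in slow fibres and 31759 ± 3176 in fast fibres. The log2 difference of -1.69, or 3.22-fold lower in slow fibres, was the lowest of the 10 genes under the 75th percentile scaling and stayed past 2-fold under all 9 scalings, from -1.81 to -1.26. Ampd3, the form named for erythrocytes and found also in muscle, read 2985 ± 299 in slow fibres and 2889 ± 289 in fast fibres by its brighter probe, a log2 difference of -0.05. The other Ampd3 probe read 234 ± 23.5 in slow fibres and 181 ± 18.2 in fast fibres, a difference of 0.27. The Ampd3 to Ampd1 ratio by the brighter probe was higher in slow fibres by 1.63 on the log2 scale, and by 1.60 to 1.81 over the 9 scalings. The erythrocyte markers measured on both arrays had a median difference of -1.31, and their part in the Ampd3 values was not tested. Ampd2, the widely expressed form, stood at -0.98 by its brightest probe and at 0.39 by another probe measured on both arrays.

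Adssl1, the muscle form of adenylosuccinate synthase, read 51113 ± 5111 in slow fibres and 73149 ± 7315 in fast fibres, a log2 difference of -0.62 that was below 0 under all 9 scalings and never reached 2-fold. The Adssl1 to Ampd1 ratio was 2.09-fold higher in slow fibres. Adss, the form of other tissues, was 2.15-fold higher in slow fibres, at an intensity of 342 in slow and 148 in fast fibres. Its log2 difference was 1.10 by its brighter and 1.54 by its other probe. Under normexp the smallest Adss value was 0.80. Adsl, the lyase that completes the cycle, read 27328 in slow and 27379 in fast fibres, a difference of -0.10. Thus of the 3 steps of the purine nucleotide cycle, the muscle deaminase passed 2-fold, the muscle synthase lay within it and the lyase was near 0. Ampd2, Adss and Adsl were named after their values were seen.

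**Figure D3:**
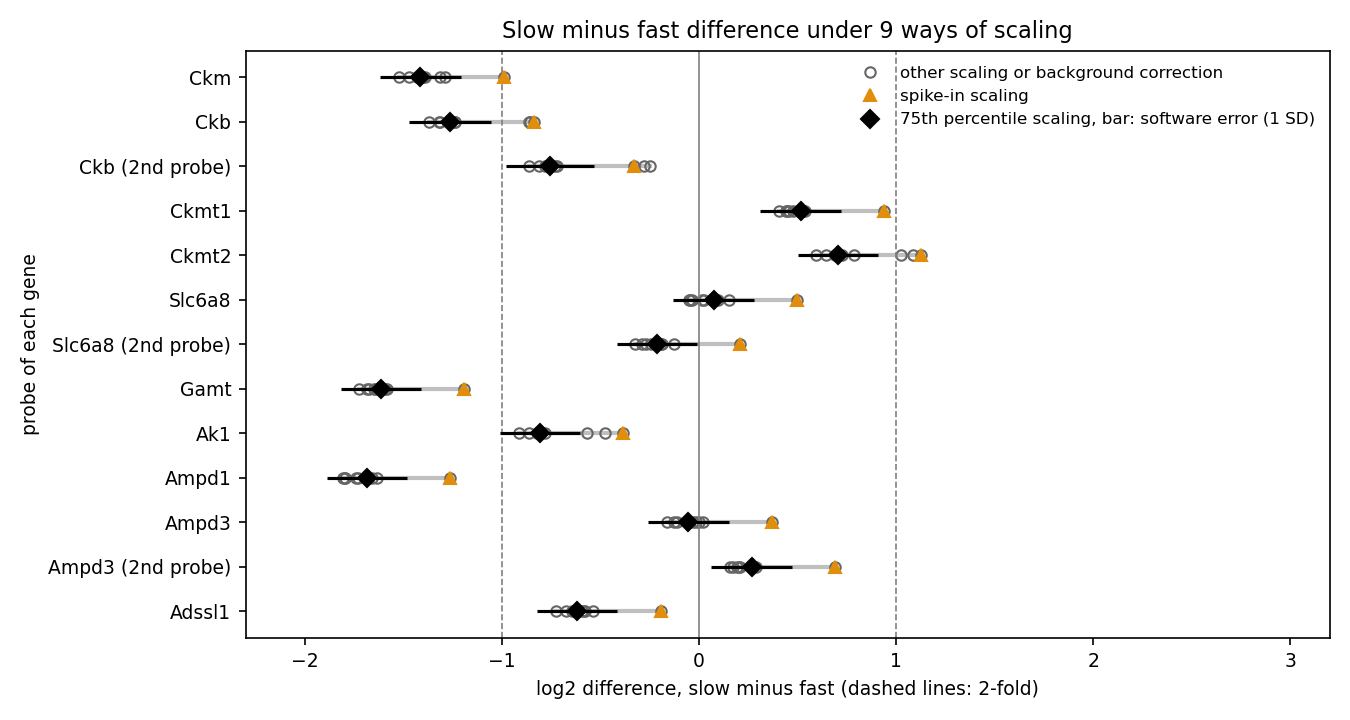
Log2 difference, slow minus fast, of each probe under 9 ways of scaling and background correction; diamonds with bars show the 75th percentile scaling with the software's error (1 SD), triangles spike-in scaling and open circles the others, and dashed lines mark 2-fold. Ampd1 and Gamt lie beyond 2-fold under all 9, Ckm under 8 and the brighter Ckb probe under 6.

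Most other genes of these pathways lay within 2-fold between the pools, as did most of all genes detected (11002 of 14646). Over 7 lists with 68 genes, 56 were above background in either pool, of which 7 passed 2-fold lower in slow fibres (beside 14.2% of all genes), 5 passed it higher (beside 10.6%) and 44 lay within 2-fold. Their median difference was -0.07, or -0.12 with genes seen in 1 pool at their bound. Carriers and channels that pass ATP and ADP across the mitochondrial membranes showed no difference of 2-fold in any of 5 measured members, with a median of -0.05. Slc25a4, the ADP/ATP carrier of heart and muscle, was at 234567 in slow and 225620 in fast fibres and a log2 difference of -0.05, Slc25a5, the carrier of other tissues, at 0.54, and Vdac3, an outer membrane channel, at -0.18. Slc25a4 was chosen after its value was seen. De novo purine synthesis had no member past 2-fold among 7, with a median of -0.04 (-0.22 with 1 gene at its bound). Pfas, a middle step, was at 0.84 (0.20 under normexp) and Ppat, the committing step, at -0.70.

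In breakdown and salvage of AMP, IMP and adenosine, 3 of 22 measured genes passed 2-fold higher in slow fibres (Nt5c2, Nt5c3b and Adss), beside 10.6% of all genes. Another 3 passed it lower (Pnp, Ada and Nt5e), beside 14.2% of all genes, and 16 lay within 2-fold. The median of the list was 0.06, or -0.03 with bounds. Nt5e was above background in fast fibres only, and its log2 bound of -1.35 was -0.30 under normexp. Nt5c2, a cytosolic nucleotidase that prefers IMP, was 8.51-fold higher in slow fibres, at 761 in slow and 83.4 in fast fibres by its only probe, and its log2 difference of 3.09 went no lower than 2.39 over the 9 scalings. Nt5c3b, another nucleotidase, was 3.32-fold higher in slow fibres, at 1.73 and 1.48 by its probes. Pnp, which splits inosine, was 4.69-fold lower in slow fibres, at 142 in slow and 623 in fast fibres, and stayed past 2-fold under all 9 scalings. Ada, which deaminates adenosine, was 4.22-fold lower in slow fibres at dim signals of 12.1 in slow and 47.4 in fast fibres, a log2 difference of -2.08 that was -0.71 under normexp. Endothelial and immune markers were also lower in slow fibres, with medians of -1.70 and -1.25 over the members measured on both arrays, and their part in the Pnp and Ada values was not tested.

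Of 11 nucleotide kinases, Nme4, the mitochondrial nucleoside diphosphate kinase, was 3.38-fold higher in slow fibres, with log2 differences of 1.76 and 1.91 by its probes. Cmpk2, a mitochondrial UMP-CMP kinase, was 3.24-fold lower in slow fibres at dim signals of 16.6 in slow and 49.9 in fast fibres, and its log2 difference of -1.69 was -0.54 under normexp. The other 9 lay within 2-fold. Among 6 measured adenosine receptors and nucleoside transporters, with a median of -0.29, Slc28a2, a sodium-coupled nucleoside transporter, was 4.33-fold lower in slow fibres, at 30.6 in slow and 123 in fast fibres, and its log2 difference of -2.11 was -1.01 under normexp with quantile normalization. Adora1, an adenosine receptor, was well above background only in slow fibres, where it was at least 2.12-fold higher, a log2 bound of 1.09 that was 0.19 under normexp.

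**Figure D4:**
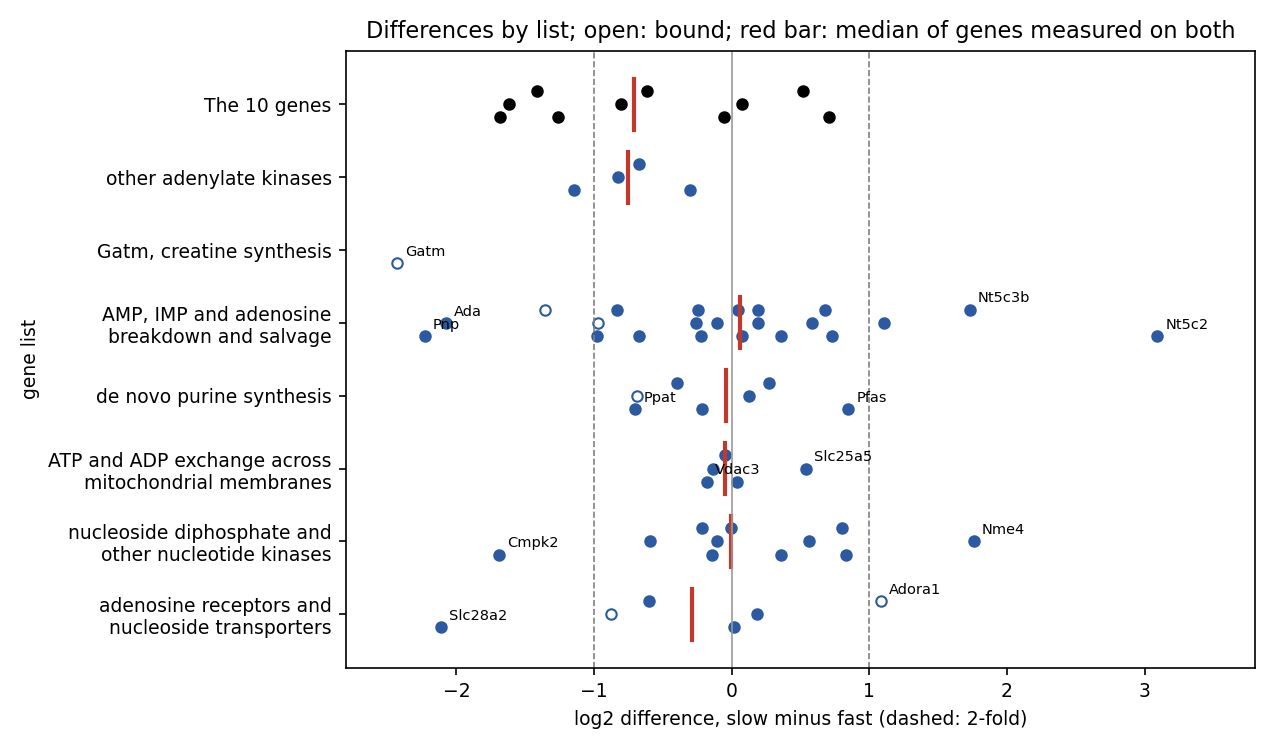
Log2 difference, slow minus fast, of each gene in the set of 10 and in 7 lists of other pathway genes; filled points were measured on both arrays, open points are bounds, red bars are medians over the filled points, and dashed lines mark 2-fold. The set of 10 and the other adenylate kinases have medians of -0.71 and -0.75 (for the adenylate kinases, -0.33 under spike-in scaling), while the lists of salvage, synthesis, exchange and nucleotide kinase genes have medians between -0.05 and 0.06.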

How the data were processed

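Intensities of 59305 non-control spots per array were used as deposited. Agilent Feature Extraction 12.0.3.1, named in the submitters' processing notes, per the file headers subtracted background and detrended the signal within each 1-colour array, with no scaling between arrays; the 0 or 1 spot flags and the median spot and background intensities are from the same deposited files. The authors' deposited value table holds these intensities times 2.45 (slow) and 2.83 (fast), with column medians of 27.1 and 30.1, no log and no centring, and an unknown target of the factor. After 159 outlier spots were removed and repeated spots averaged, 33763 of 56596 probes matched RefSeq genes (table of assembly GRCm38.p6, for names; the array design refers to mm9). Log2 intensities were scaled by the 75th percentile of all non-control spots, 196 in slow and 183 in fast fibres.

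A gene took its brightest probe among those well above background in either pool, and a difference of 2-fold served as the call; 12852 genes were measured on both arrays, 637 in slow fibres only and 1157 in fast fibres only. No spot was saturated, and 50.9% of spots in slow and 52.3% in fast fibres were well above background. Between the 2 brightest measured probes of 4465 genes the median gap in the difference was 0.19, and the 90th percentile 0.78. Of 401 such genes with the brightest probe at least 2-fold lower in slow fibres, 280 (69.8%) had a second probe past 2-fold too. Among the called members, Ckm, Gamt and Ampd1 had 1 probe each, so no second probe could be compared. The arrays shared 1 slide and 1 scan. The members and lists, and all alternatives, were chosen with earlier results of these data known. The text names all members, in each pathway list the 2 highest and 2 lowest past 2-fold or the 2 farthest from 0, the myosins, and the first 2 genes of each marker list, with later choices stated; some genes of these lists are not reported here. Alternatives used Python 3.11.15, statsmodels 0.14.6 (loess, span 0.3), and R 4.3.3 with limma 3.58.1 (normexp on median intensities, offset 50, and quantile normalization), and the steps were tested on simulated data. Promoter sequences are from RefSeq, GRCm38.p6.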

Additional observations from a re-analysis of the deposited data

How the results depend on the processing

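With 1 array per group, nothing here covers the spread between animals, pools or labelling reactions. Probes dim in at least 1 pool (among them Ckb, Gatm, Ada, Nt5e, Cmpk2, Slc28a2, Pfas and Adora1) moved under normexp background correction. Spike-in scaling shifted the median of all genes by 0.42 and the authors' table by -0.11. Of all genes past 2-fold, 42.7% were higher in slow fibres under the 75th percentile and 70.6% under spike-in scaling. No called member changed sign under any of these settings. No paired analysis was possible because each group has 1 sample.

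Under spike-in scaling Ckm was at -0.99 and Ckb at -0.84. That left 2 of the 10 genes at least 2-fold lower in slow fibres (beside 8.88% of all genes). Ckmt2, at 1.13 under the same scaling, made 1 that was higher (beside 3122 of 14646 genes). Ckb was at -0.86 under both normexp settings and at -0.76 by its other probe. Ckmt2 was past 2-fold, at 1.02 with quantile normalization and 1.09 with normexp and quantile normalization. This made 1 gene higher in each, beside 1577 and 766 of 14646 genes. A 1.5-fold size rule called 6 genes lower and 1 higher, beside 3382 lower and 3083 higher of all 14646 genes detected. A 3-fold rule called 2 lower and none higher, beside 1059 lower and 762 higher of all genes detected.

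Of the 56 other pathway genes measured, 3 were lower and 3 higher under both normexp settings, and 18 and 11 with a 1.5-fold rule. Higher in slow fibres were 11 under spike-in scaling, 3 in the authors' table and 3 with a 3-fold rule. Over all genes, 1300 were lower and 3122 higher under spike-in scaling, 1000 and 766 under normexp with quantile normalization, and 951 and 810 under normexp with the 75th percentile. The lower and higher counts were 3382 and 3083 with a 1.5-fold rule, and 1059 and 762 with a 3-fold rule. With no filter on dim probes, 2480 of all 23458 matched genes were higher. The cause of these differences was not tested beyond what the settings change by construction.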
